A study of Mus musculus with 6 samples.

Results

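Small leucine-rich proteoglycans (SLRPs) are secreted matrix proteins with a core of leucine-rich repeats, and 10 of their genes, *Bgn*, *Dcn*, *Aspn*, *Lum*, *Fmod*, *Prelp*, *Kera*, *Omd*, *Ogn* and *Podn*, were followed here in muscle stem cells (MuSCs) with and without *Sirt6*. They were taken by name from the gene column of a table of 25166 genes, and all 10 have a row. MuSCs are the PAX7-positive stem cells of skeletal muscle. The series asked how the transcriptome of freshly isolated MuSCs differs between control and Sirt6mKO mice. Sirt6mKO mice of the C57BL/6 strain carry floxed *Sirt6* alleles and a constitutively active Cre recombinase driven by the Pax7 promoter (Pax7-ICNCre), so that the deletion takes place throughout the skeletal muscle lineage and is not limited to adult MuSCs. The control libraries, Ctrl, are called wild type in the labels. The supplementary legend instead describes floxed *Sirt6* without Cre, and gives males of 12 weeks for both groups. Each group has 3 libraries of total RNA, 1 per sample, made from 100 to 200 cells sorted as CD45-, CD31- and Sca1- and positive for integrin alpha 7 and CD34. Whether animals were pooled is not given in the sources used here, and the p-values below measure the spread between these libraries.

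SLRPs sit on the surface of collagen fibrils and govern how fibrils assemble and how wide they grow. Many carry chondroitin, dermatan or keratan sulfate chains, and several bind growth factors of the TGF-beta family and hold them in the matrix. They are grouped into classes by sequence and gene structure. Class I holds biglycan, decorin and asporin, class II fibromodulin, lumican, PRELP, keratocan and osteomodulin, class III osteoglycin, and podocan belongs to a later, non-canonical class. In skeletal muscle biglycan is known as a ligand of the dystrophin-associated complex at the sarcolemma, decorin as a binding partner of myostatin and TGF-beta, and fibromodulin and asporin as products of tendon and other dense connective tissue.

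In Sirt6mKO MuSCs *Bgn* and *Aspn* rose, and no SLRP gene fell. *Bgn*, which encodes biglycan, was 2.10-fold higher and was among the abundant SLRP transcripts in every library. *Aspn*, which encodes asporin, was near 0 in the controls and stayed low in Sirt6mKO. *Prelp* and *Ogn*, the other abundant members, were at 1.23-fold and 1.67-fold of the control level without passing the thresholds. *Fmod*, *Kera* and *Dcn* were higher in Sirt6mKO replicates 2 and 3 but not in Sirt6mKO replicate 1, and their groups overlapped.

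The values are called signal here. They are reads per gene divided by 1 size factor per library and rounded, and they sum to between 2272307 and 2369973 per library. The factors were estimated from how often each small whole number occurs among the values of a library. Behind the signal lie 2471637 to 3176380 reads in the Sirt6mKO libraries and 1267027 to 3209958 in the controls, the fewest in Ctrl replicate 3, where 1 read equals a signal of 1.79. Fold changes come from limma-trend on log2(signal + 1), which understates changes of genes with low signal. A gene was called if its change reached 2-fold and its p, adjusted by Benjamini-Hochberg over the 14227 genes whose mean signal was 5 or more, did not exceed 0.05. Where 3 values are given for a group, they stand for replicates 1, 2 and 3 in this order. *Sirt6* itself had 19, 20 and 13 in Sirt6mKO and of 18, 17 and 20 in Ctrl. The deletion removes only part of its exons and the table counts the whole gene, so these values do not check the genotype, and every direction below rests on the labels. *Pax7*, which defines MuSCs, was present in all 6 libraries, at 1841, 2307 and 1810 in Sirt6mKO and at 4066, 3449 and 3150 in Ctrl. All Sirt6mKO libraries were below all controls, with a log2 fold change of -0.84 ± 0.13 (SE) and an adjusted p of 0.0041 by limma-trend, under the 2-fold limit.

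Marker lists of the cells that a muscle sort can hold differed between libraries. The summed signal of 10 tenocyte markers was 317, 1210 and 639 in Sirt6mKO and 270, 249 and 176 in Ctrl. All Sirt6mKO values lay above all Ctrl values for 4 of the 10, and *Cpxm2* was called higher, while *Col12a1* and *Thbs4*, the most abundant of the list, were not. For comparison, all Sirt6mKO values lay above all Ctrl values in 11.1% of all genes tested and below in 10.1%. Of all genes tested, 1.57% were called higher. The sum of 9 myofiber markers was 980 to 2408 in Sirt6mKO and 639 to 808 in Ctrl, with 4 above all controls. Of these, *Acta1* and *Mylpf* were called higher, and *Ttn* and *Myh4*, the most abundant of the rest, were not. The 15 fibroblast markers summed to 6819 to 7510 and 5125 to 7149, with 5 above all controls. *Pdgfra*, *Clec3b* and *Cxcl14* among them were called higher, the abundant *Gsn* and *Fbn1* were not, and *Ly6a*, the gene of the Sca1 antigen that the sort excludes, was at 0 to 2. Among the called markers, *Cpxm2* and *Clec3b* reached the minimum mean only through the Sirt6mKO libraries, which favoured a higher value there. The 14 MuSC markers summed to 18283 to 19765 in Sirt6mKO and 20623 to 22208 in Ctrl. Of these 5 were below all controls, *Pax7* and *Chodl* included, and 1, *Cd34*, was above. None was called, and the median log2 fold change of the list was -0.18. A large part of the difference in the sum is *Pax7*, with means of 1986 in Sirt6mKO and 3555 in Ctrl. Its promoter also drives the Cre of the Sirt6mKO mice. The 6 mural markers summed to 3760 to 4990 and 2192 to 3372, but this sum is mostly *Notch3*, a receptor that MuSCs also express, with 4104, 4873 and 3688 in Sirt6mKO and 3289, 2967 and 2112 in Ctrl. Of the mural markers other than *Notch3*, *Abcc9* was below all controls, and *Rgs5*, *Pdgfrb* and *Myh11* overlapped. The 6 endothelial markers, of which *Tek* and *Pecam1* were tested and not called, summed to 373 to 450 and 467 to 573. This sum is mostly *Tek*, with 349, 412 and 367 in Sirt6mKO and 454, 562 and 430 in Ctrl. *Pecam1* had 22, 27 and 24 in Sirt6mKO and 11, 4 and 29 in Ctrl, and its groups overlapped. Of 7 immune markers 4 have no row, *Ptprc* included, and *Cd68* alone was tested and not called. The 5 erythroid markers, led by *Hba-a1* and *Hba-a2*, reached 545 in Ctrl replicate 2 and lay between 13 and 60 elsewhere. In bulk RNA more cells of a type and more RNA per cell cannot be told apart, and the part of these cells in the results below was not tested.

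The promoters of 3 members are shown for their place in the results, *Bgn* and *Aspn* because they were called, and *Fmod* because it varied most between libraries among the 5 members with a mean signal over 20. Promoters of 8 of the 10 members were found in the RefSeq set for GRCm38.p6, and those of *Dcn* and *Lum* were not matched. Each line gives the 250 bases before the RefSeq start, 5′ to 3′, with matches on either strand to TATAAA, the E-box CANNTG, the GC box GGGCGG and the AP-1 motif TGANTCA in capitals, where neighbouring matches can run together.
Bgn, chrX:73483351-73483600, plus strand: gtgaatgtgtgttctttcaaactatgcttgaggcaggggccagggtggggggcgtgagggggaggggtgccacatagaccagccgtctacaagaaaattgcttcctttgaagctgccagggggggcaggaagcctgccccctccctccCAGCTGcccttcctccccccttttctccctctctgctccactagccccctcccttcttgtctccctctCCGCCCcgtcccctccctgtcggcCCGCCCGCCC
Aspn, chr13:49544193-49544442, plus strand: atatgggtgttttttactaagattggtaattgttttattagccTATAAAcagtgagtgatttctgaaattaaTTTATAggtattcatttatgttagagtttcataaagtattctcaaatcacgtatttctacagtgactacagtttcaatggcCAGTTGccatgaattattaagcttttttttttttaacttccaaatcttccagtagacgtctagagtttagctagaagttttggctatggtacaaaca
Fmod, chr1:134037004-134037253, plus strand: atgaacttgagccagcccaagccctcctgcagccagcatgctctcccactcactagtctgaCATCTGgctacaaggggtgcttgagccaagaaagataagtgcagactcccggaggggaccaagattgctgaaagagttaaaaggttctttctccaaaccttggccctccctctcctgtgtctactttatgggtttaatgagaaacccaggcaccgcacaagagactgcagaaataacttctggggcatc
The 3 windows differ in base composition, with 64.4% G and C at *Bgn*, 51.2% at *Fmod* and 30% at *Aspn*. The *Bgn* window holds 3 GC boxes, a motif found in 32.7% of 32851 RefSeq promoter windows of this length, and no TATAAA. The *Aspn* window holds TATAAA at 2 places, the nearer 178 bases before the start, and 12.4% of windows hold this motif. All 3 have a single E-box, a motif that 66.2% of windows hold, and none has the AP-1 motif, which 6.7% hold. These matches describe letters only and were not measured as binding sites.

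*Bgn* lies at X:73483602-73495933 on the plus strand of GRCm38. It had 1894, 1500 and 1609 in Sirt6mKO and 1081, 604 and 758 in Ctrl. All Sirt6mKO libraries were above all controls, and the lowest Sirt6mKO library exceeded the highest control, Ctrl replicate 1. The means were 1668 ± 203 and 814 ± 243 (SD, n = 3), a log2 fold change of 1.07 ± 0.18 (SE) with an adjusted p of 0.005 by limma-trend. The exact two-sided permutation test gave p = 0.1, the smallest p that 3 against 3 libraries allow. The call was lost without Sirt6mKO replicate 1, where the log2 fold change was 0.97 with an adjusted p of 0.052 by limma, and without Ctrl replicate 2, where it was 0.87 with an adjusted p of 0.021.

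*Dcn* encodes decorin, the nearest relative of biglycan. It had 43, 167 and 157 in Sirt6mKO and 77, 26 and 34 in Ctrl. Sirt6mKO replicates 2 and 3 stood above every control, while Sirt6mKO replicate 1 lay below Ctrl replicate 1. The means were 122 ± 68.9 and 45.7 ± 27.4 (SD, n = 3), and the log2 fold change of 1.33 ± 0.47 (SE) had an adjusted p of 0.15 by limma-trend. Without Sirt6mKO replicate 1 it was 1.96 with an adjusted p of 0.035 by limma and passed both thresholds.

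*Aspn* had 4, 23 and 15 in Sirt6mKO and 2, 0 and 0 in Ctrl. The groups did not overlap, but the gap between Sirt6mKO replicate 1 and Ctrl replicate 1 was 5 reads against 2. The log2 fold change was 3.11 ± 0.70 (SE) with an adjusted p of 0.025 by limma-trend. Since only 2 reads lie behind the controls, the fitted value depends on the pseudocount, and the ratio of reads corrected for library size was 19.6 with a 95% interval of 5.2 to 166.5, which covers counting error only and not the spread between libraries. Reads from asporin, a class I member without the usual glycosaminoglycan chain, were thus few, 52 in all Sirt6mKO libraries together. Without Sirt6mKO replicate 3, Ctrl replicate 2 or Ctrl replicate 3 its adjusted p by limma was 0.11, 0.079 and 0.06, and without Sirt6mKO replicate 2 its mean fell under the minimum.

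Of the 10 members, 2 were thus called higher and 0 lower, where 1.57% of all genes tested were called higher and 1.02% lower. *Bgn* and *Aspn* also make up the whole count at the adjusted p alone, which 2.64% of all genes passed upward and 1.88% downward. In 4 members, *Bgn*, *Ogn*, *Aspn* and *Omd*, all Sirt6mKO libraries were above all controls, and in 0 all were below, against 11.1% and 10.1% of all genes tested. *Aspn*, *Kera*, *Omd* and *Podn* reached the minimum mean only through the Sirt6mKO libraries, so for these 4 the filter favoured a higher Sirt6mKO value.

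**Figure D1:**
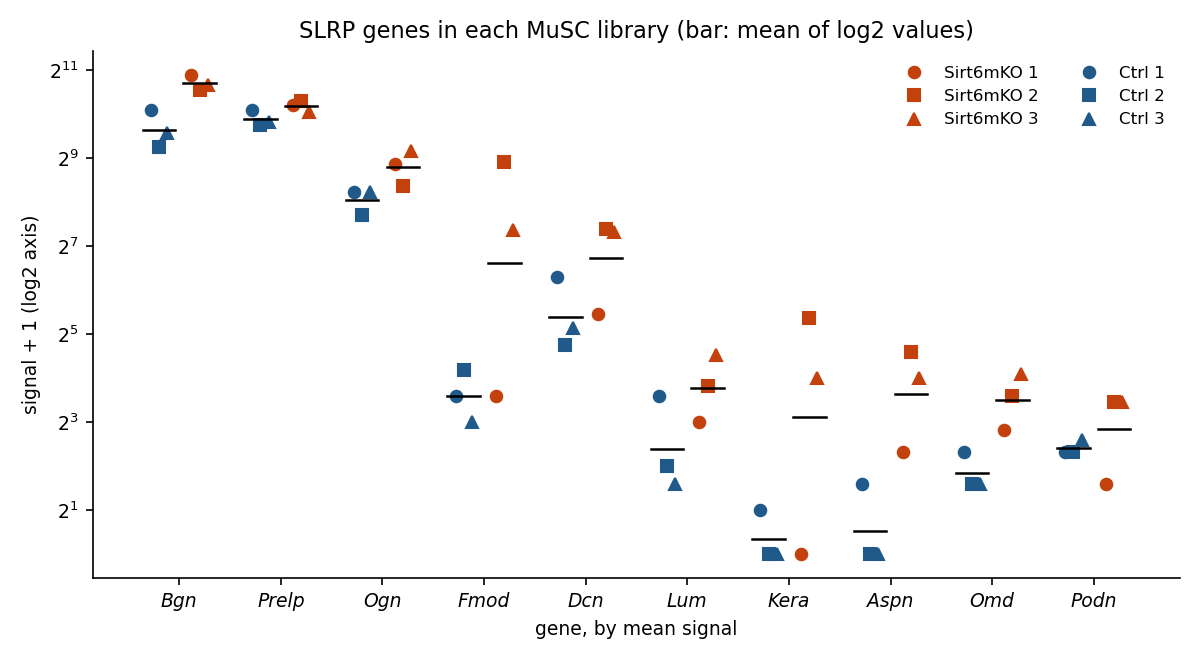
Signal + 1 on a log2 axis for the 10 SLRP genes, ordered by mean signal, with 1 point per library, Ctrl in blue and Sirt6mKO in orange, and a bar at the mean of the log2 values of a group. The Bgn points of Sirt6mKO lie between 1500 and 1894 and those of Ctrl between 604 and 1081, while the Sirt6mKO points of Fmod run from 11 to 481.

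*Prelp* encodes a class II protein that ties basement membranes to the underlying collagen. It had 1180, 1243 and 1059 in Sirt6mKO and 1079, 856 and 893 in Ctrl. Its values spanned only 0.23 on the log2 scale in Sirt6mKO and 0.33 in Ctrl, and the ranges met between Sirt6mKO replicate 3 and Ctrl replicate 1. The means were 1161 ± 93.5 and 943 ± 120 (SD, n = 3), and the log2 fold change was 0.30 ± 0.12 (SE) with an adjusted p of 0.20 by limma-trend. The exons of *Prelp* share 350 bases with the antisense gene *Gm15851*, and whether strand was used in counting is not given in the sources used here.

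*Fmod* encodes fibromodulin, which limits the lateral growth of collagen fibrils and is abundant in tendon. It had 11, 481 and 163 in Sirt6mKO and 11, 17 and 7 in Ctrl. Sirt6mKO replicate 1 was at the level of the controls, and Sirt6mKO replicates 2 and 3 were far above it. The means were 218 ± 240 and 11.7 ± 5.03 (SD, n = 3), and the log2 fold change of 3.03 ± 0.94 (SE) had an adjusted p of 0.097 by limma-trend. Without Sirt6mKO replicate 1 the log2 fold change was 4.55 with an adjusted p of 0.0023 by limma.

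*Kera*, which encodes keratocan of the cornea, had 0, 40 and 15 in Sirt6mKO and 1, 0 and 0 in Ctrl. It followed *Fmod* in being high in Sirt6mKO replicates 2 and 3 only. A single read lies behind the controls, against 70 in Sirt6mKO, a rate ratio of 52.9 with a 95% counting interval of 9.2 to 2117.8. The limma-trend adjusted p was 0.19, and the Sirt6mKO libraries spanned 5.36 on the log2 scale. Without Sirt6mKO replicate 1 its log2 fold change was 4.35 with an adjusted p of 0.016 by limma. *Kera* was called in only 1 of the 5 fits without a library that could test it, and its log2 fold change there fell to 2.35. Over all alternatives its adjusted p by limma reached 0.45.

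*Lum* and *Omd* were low throughout. *Lum*, which encodes lumican, had 7, 13 and 22 in Sirt6mKO and 11, 3 and 2 in Ctrl. Its groups overlapped at Ctrl replicate 1, and the log2 fold change of 1.39 ± 0.57 (SE) had an adjusted p of 0.22 by limma-trend. *Omd*, which encodes osteomodulin of bone, had 6, 11 and 16 in Sirt6mKO and 4, 2 and 2 in Ctrl. Its groups were separate, with a log2 fold change of 1.66 ± 0.50 (SE) and an adjusted p of 0.086 by limma-trend.

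*Ogn* encodes osteoglycin, also named mimecan, a class III protein that muscle cells secrete. It had 463, 327 and 572 in Sirt6mKO and 300, 207 and 296 in Ctrl. All Sirt6mKO libraries were above all controls, with 327 in Sirt6mKO replicate 2 close to 300 in Ctrl replicate 1. The means were 454 ± 123 and 268 ± 52.6 (SD, n = 3), and the log2 fold change of 0.74 ± 0.20 (SE) with an adjusted p of 0.051 by limma-trend passed neither threshold. *Podn* encodes podocan and had 2, 10 and 10 in Sirt6mKO and 4, 4 and 5 in Ctrl, with a log2 fold change of 0.43 ± 0.56 (SE) and an adjusted p of 0.76 by limma-trend.

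**Figure D2:**
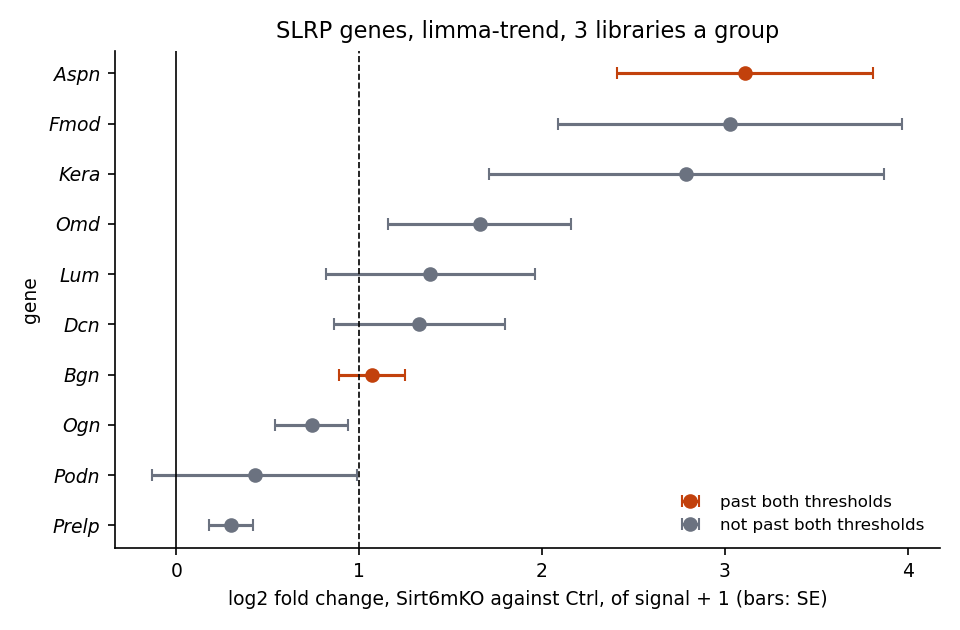
Log2 fold change of signal + 1, Sirt6mKO against Ctrl, for each SLRP gene with its SE from limma-trend, orange where both thresholds were passed and grey otherwise, with a dashed line at the 2-fold limit. Bgn at 1.07 has a short bar of 0.18 and Aspn at 3.11 a longer one of 0.70, while Kera has the longest at 1.08.

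Levels of different genes were compared as signal per kilobase of annotated exons, taken as the union over all transcripts of a gene. The order depends on this length, which is 6099 bases for *Bgn* and 3615 for *Prelp*. Before division by length, *Bgn* and *Prelp* had means of 814 and 943 in Ctrl and 1668 and 1161 in Sirt6mKO. In the controls *Prelp* stood highest at 261 ± 33.1 per kilobase, followed by *Bgn* at 134 ± 39.9 and *Ogn* at 104 ± 20.5 (SD, n = 3). The range of *Prelp* did not overlap that of *Bgn*, whereas the ranges of *Bgn* and *Ogn* overlapped, although *Bgn* was above *Ogn* within each library. A wide gap followed to *Dcn* at 7.82 ± 4.70, *Fmod* at 3.53 ± 1.52 and *Lum* at 2.18 ± 2.02 per kilobase (SD, n = 3), each overlapping the next. In Sirt6mKO *Prelp* was at 321 ± 25.9, *Bgn* at 273 ± 33.4 and *Ogn* at 177 ± 47.8 per kilobase (SD, n = 3). *Prelp* remained above *Bgn* within each Sirt6mKO library, but their ranges now overlapped. *Fmod* took the fourth place there at 66.0 ± 72.6 per kilobase, a mean set by Sirt6mKO replicates 2 and 3, and *Dcn* the fifth at 20.9 ± 11.8 (SD, n = 3).

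The 10 genes together summed to 3610, 3815 and 3638 in Sirt6mKO and to 2570, 1719 and 1997 in Ctrl. This was 0.155 to 0.161% of the total signal of a Sirt6mKO library and 0.073 to 0.110% of a control library. The summed signal differed little between the Sirt6mKO libraries, but its make-up did. *Bgn* took 52.5% of the sum in Sirt6mKO replicate 1, 39.3% in Sirt6mKO replicate 2 and 44.2% in Sirt6mKO replicate 3, against 42.1%, 35.1% and 38.0% in Ctrl. *Fmod* took 12.6% in Sirt6mKO replicate 2 and 4.48% in Sirt6mKO replicate 3, and under 1% in the other 4 libraries. *Prelp* took 29.1 to 32.7% in Sirt6mKO and 42 to 49.8% in Ctrl.

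**Figure D3:**
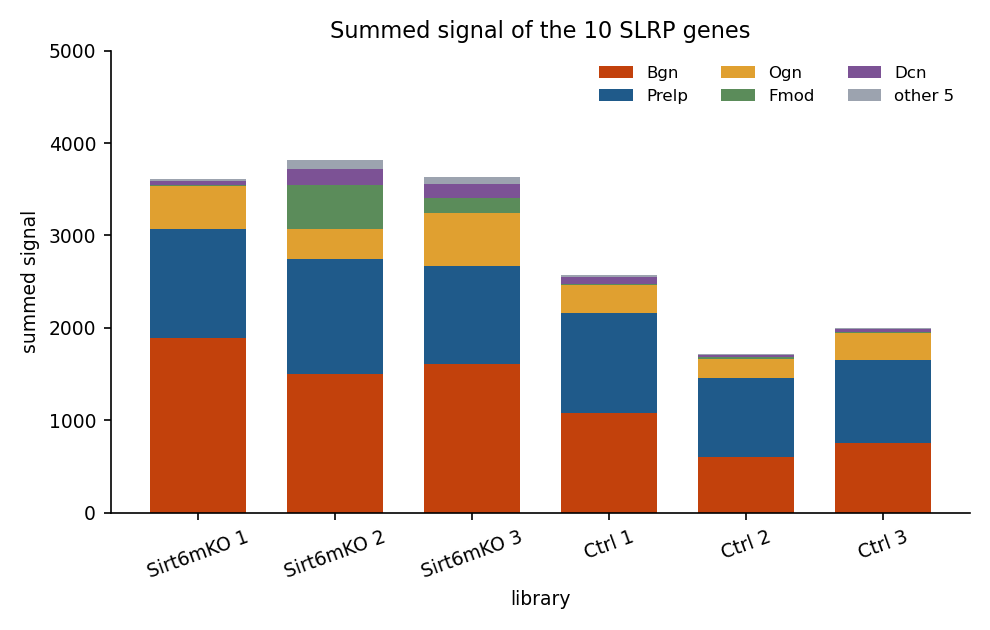
Summed signal of the 10 SLRP genes in each library, stacked by gene, with the 5 less abundant members in grey. The bars of Sirt6mKO reach 3610 to 3815 and those of Ctrl 1719 to 2570, and the green segment of Fmod is visible in Sirt6mKO replicates 2 and 3 only.

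Ratios within a library do not depend on the size factor. With 1 added to each signal, the log2 ratio of *Bgn* to *Dcn* was 5.43, 3.16 and 3.35 in Sirt6mKO and 3.79, 4.49 and 4.44 in Ctrl. The Sirt6mKO libraries lay on both sides of the controls, and the difference of the means, Sirt6mKO minus Ctrl, was -0.26 with p = 0.8 in the exact two-sided permutation test. Of 4 ratios computed, the other 3 were chosen after the values were seen. The log2 ratio of *Bgn* to *Prelp* was 0.68, 0.27 and 0.60 in Sirt6mKO and 0.00, -0.50 and -0.24 in Ctrl. It was higher in 3 of 3 Sirt6mKO libraries than in any control, with a difference of 0.76 and p = 0.1 in the exact two-sided permutation test, the smallest p possible. The ratio of *Bgn* to *Ogn* differed by 0.32 and that of *Prelp* to *Ogn* by -0.44, both with p = 0.3 in the same exact test and with groups that overlapped. Adjusted by Benjamini-Hochberg over the 4 ratios, the exact p was 0.8 for *Bgn* to *Dcn* and 0.4 for each of the other 3.

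Most SLRP genes lie in clusters. *Optc*, *Prelp* and *Fmod* share 151.1 kb of chromosome 1, *Dcn*, *Lum*, *Kera* and *Epyc* share 202.8 kb of chromosome 10, and *Ecm2*, *Aspn*, *Omd* and *Ogn* share 119.7 kb of chromosome 13. Neighbours had like values in some cases and unlike ones in others. *Dcn* and *Lum*, 46985 bases apart, had log2 fold changes of 1.33 and 1.39. *Prelp* and *Fmod*, 115840 bases apart with no coding gene between them, had log2 fold changes of 0.30 and 3.03 and control means of 943 and 11.7. *Ogn* and *Omd*, 15224 bases apart, differed in control mean as 268 against 2.67. The chromosome 13 genes lie within the span of *Cenpp*, a centromere protein gene on the other strand, which had a mean of 6.00 in Sirt6mKO and 9.67 in Ctrl, and *Aspn* shares 7 exon bases with it. *Bgn* lies apart on the X chromosome and *Podn* on chromosome 4.

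**Figure D4:**
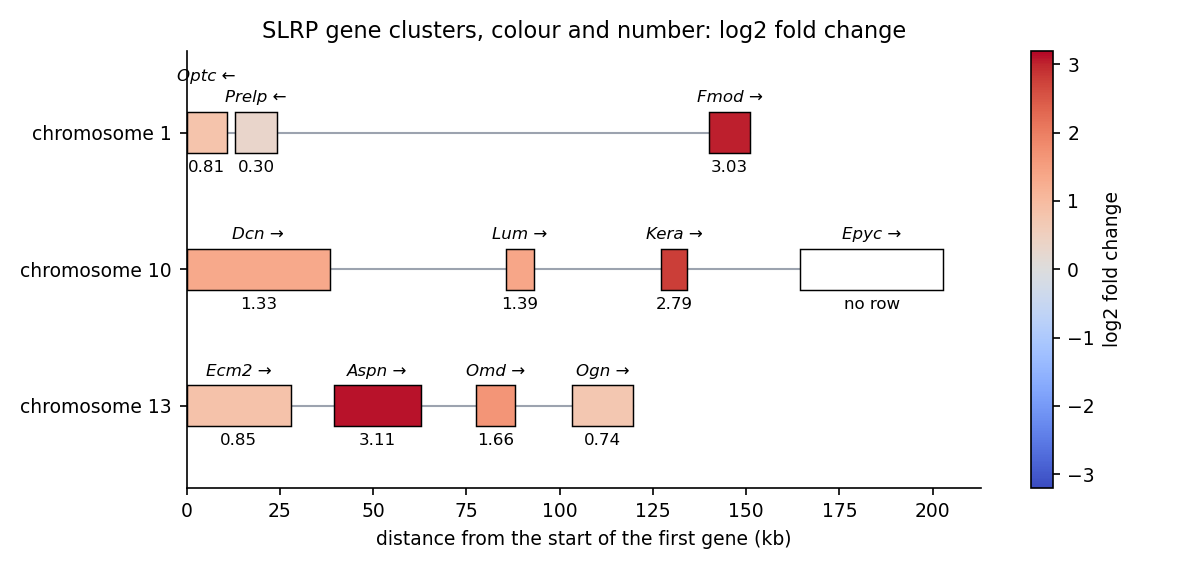
The 3 SLRP gene clusters drawn to scale by distance in kilobases from the start of the first gene, with boxes for gene spans, arrows for strand, and colour and number for the log2 fold change of signal + 1, Sirt6mKO against Ctrl. Fmod at 3.03 and Prelp at 0.30 share a cluster, and Epyc has no row.

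Of 8 further genes with SLRP or related repeats, 7 have a row and 5 were tested, with 0 called. *Ecm2*, which encodes an SLRP-related matrix protein next to *Aspn*, had 186, 199 and 192 in Sirt6mKO and 152, 109 and 73 in Ctrl, with a log2 fold change of 0.85 ± 0.21 (SE) and an adjusted p of 0.041 by limma-trend, under the 2-fold limit. *Optc*, which encodes opticin, had 29, 31 and 27 in Sirt6mKO and 17, 7 and 34 in Ctrl, with an adjusted p of 0.36 by limma-trend. The others had a signal of at most 22 in any library.

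*Fmod* had close company among all genes. Patterns were compared over the 6 libraries as the root mean square difference of log2(signal + 1), each gene centred on its own mean, among 10192 genes with a mean of at least 20, and are given as a description. The genes most like *Fmod* were *Thbs4*, *Cilp* and *Tnc*, at differences of 0.18, 0.45 and 0.95, where *Fmod* itself departs from its mean by 2.22. *Thbs4*, which encodes a thrombospondin of tendon matrix, had 14, 508 and 191 in Sirt6mKO and 15, 16 and 7 in Ctrl. *Cilp*, a cartilage and tendon matrix gene, had 10, 160 and 84 in Sirt6mKO and 6, 7 and 4 in Ctrl. *Thbs4* and *Tnc* are on the list of tenocyte markers, whose other members *Tnmd* and *Comp* had 1, 19 and 13 and 1, 25 and 9 in Sirt6mKO and 0 to 1 and 1 to 4 in Ctrl. Of the tenocyte regulators on the list, *Scx* had 33, 27 and 24 in Sirt6mKO and 16, 23 and 23 in Ctrl, and *Mkx* had 1, 10 and 6 in Sirt6mKO and 6, 15 and 13 in Ctrl, neither of them following *Fmod*. The sum of *Fmod*, *Kera* and *Aspn*, which was not planned, was 15, 544 and 193 in Sirt6mKO and 14, 17 and 7 in Ctrl. It is mostly *Fmod*, with 11, 481 and 163 in Sirt6mKO, and so adds little to the values of that gene. The part of tendon cells in these values was not tested.

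**Figure D5:**
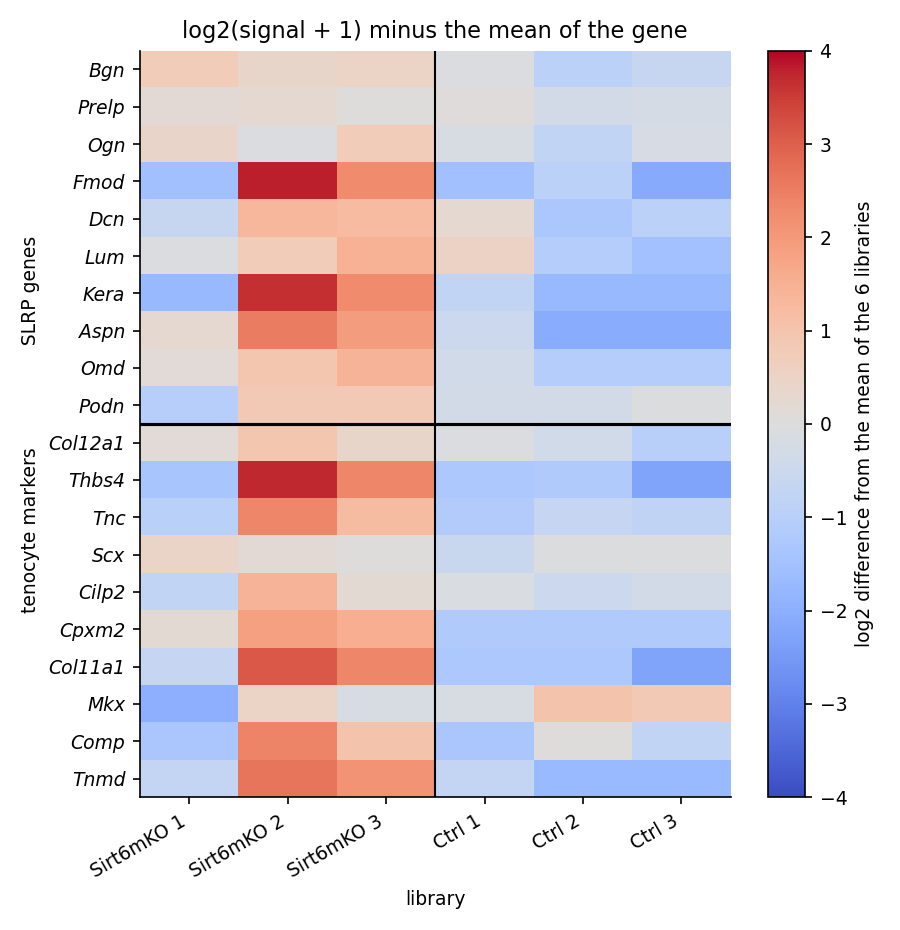
Heat map of log2(signal + 1) minus the mean of each gene over the 6 libraries, for the 10 SLRP genes above the line and 10 tenocyte markers under it, each by mean signal. Fmod and Kera are deep red in Sirt6mKO replicate 2 and red in Sirt6mKO replicate 3, as are Thbs4 and Col11a1, while Bgn, Prelp and Ogn are pale in all libraries.

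The abundant members had other company. *Bgn* was most like *Armcx4*, *Gm19334* and *Zfp37*, at differences of 0.11, 0.11 and 0.13, where *Bgn* departs from its mean by 0.60. *Ogn* was most like *Gm47075*, *Ppargc1a* and *Mef2a*, at 0.10, 0.13 and 0.15, and *Mef2a*, a myogenic transcription factor, had 399, 339 and 449 in Sirt6mKO and 240, 205 and 269 in Ctrl. *Prelp* was most like *Gcc2*, *Serping1* and *Nub1*, each at 0.05, but *Prelp* itself varied by only 0.20. The nearest to *Dcn*, *Itga1*, *Myo1f* and *Tgfbi*, were at 0.48, 0.55 and 0.55, so that no gene was as close to *Dcn* as those named for the other 3.

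The collagens that SLRPs bind include the genes of the main fibrils. Of 14 tested, 3 were called higher and 0 lower, where 1.57% of all genes tested were called higher. The median log2 fold change was 0.82 against 0.00 over all genes tested. *Col2a1*, *Col11a1* and *Col14a1*, none of them called, reached the minimum mean only through the Sirt6mKO libraries, which favoured a higher value there. Their log2 fold changes of 0.98, 3.18 and 2.03 lay above the median of the list and so raised it. *Col1a2* had 782, 1299 and 1162 in Sirt6mKO and 173, 63 and 65 in Ctrl, with a log2 fold change of 3.55 ± 0.31 (SE) and an adjusted p of 8.5e-05 by limma-trend. *Col1a1* and *Col6a3* rose by 1.94 ± 0.50 and 2.11 ± 0.55 (log2, SE), both with an adjusted p of 0.047 by limma-trend. *Col1a2* alone of the 3 was called without a filter on the mean, with a pseudocount of 0.1, with robust empirical Bayes, or without Sirt6mKO replicate 2 or 3 or Ctrl replicate 2 or 3. The most abundant collagens of the list, *Col3a1* and *Col6a1*, had log2 fold changes of 0.06 ± 0.16 and 0.28 ± 0.12 (SE) and were not called. *Col6a3* had 15, 107 and 50 in Sirt6mKO and 6, 12 and 11 in Ctrl, so that Sirt6mKO replicate 1 lay close to the controls.

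Genes that attach and sulfate the sugar chains gave 2 called higher and 0 lower of 22 tested, with a median log2 fold change of 0.02. Of all genes tested, 1.57% were called higher and 1.02% lower. *Chst15*, which adds a further sulfate to chondroitin sulfate, had 128, 139 and 196 in Sirt6mKO and 25, 23 and 5 in Ctrl, a log2 fold change of 3.30 ± 0.44 (SE) with an adjusted p of 0.0013 by limma-trend. *Chst3*, a chondroitin 6-sulfotransferase, had 94, 84 and 74 in Sirt6mKO and 48, 43 and 22 in Ctrl, with 1.2 ± 0.26 (log2, SE) and an adjusted p of 0.022 by limma-trend. For both genes all Sirt6mKO libraries were above all controls. *Chst3* was not called without Sirt6mKO replicate 1, Sirt6mKO replicate 2 or Ctrl replicate 3, while *Chst15* was. The most abundant of those not called were *Csgalnact2* at 0.06 ± 0.12 and *Fam20b* at 0.19 ± 0.14 (log2, SE). *Csgalnact1* had 71, 78 and 92 in Sirt6mKO and 145, 126 and 113 in Ctrl, all Sirt6mKO libraries below all controls. Its log2 fold change of -0.67 ± 0.16 (SE) had an adjusted p of 0.034 by limma-trend, under the 2-fold limit. For keratan sulfate chains, carried by fibromodulin and lumican, 3 genes were tested and 0 called, *B4galt1* and *B4galt4* standing at -0.10 and -0.71 (log2).

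Among 19 tested growth factors and receptors that SLRPs bind, 0 were called in either direction and the median log2 fold change was 0.02. *Bmp6*, a growth factor of the TGF-beta family, had 755, 782 and 861 in Sirt6mKO and 403, 461 and 414 in Ctrl. Its groups were separate, and the log2 fold change of 0.91 ± 0.11 (SE) had an adjusted p of 0.00069 by limma-trend, under the 2-fold limit. The most abundant, *Lrp1* and *Tgfbr3*, were at 0.27 ± 0.17 and -0.14 ± 0.11 (log2, SE). Of 10 tested genes of the sarcolemma complex tied to biglycan 1 was called higher and 0 lower. Of all genes tested, 1.57% were called higher. The called gene was *Sntb1*, which encodes beta-1-syntrophin, with 195, 157 and 143 in Sirt6mKO and 106, 70 and 48 in Ctrl. Its log2 fold change was 1.19 ± 0.24 (SE) with an adjusted p of 0.014 by limma-trend. It was not called without Sirt6mKO replicate 1 or 2 or Ctrl replicate 2 or 3. *Dag1* and *Dmd*, which encode dystroglycan and dystrophin, were at -0.27 ± 0.13 and 0.01 ± 0.13 (log2, SE). Of 7 tested genes on a list of proteases that cleave SLRPs, which also holds a protease enhancer, 0 were called. *Adamts1* was at 0.05 ± 0.13 (log2, SE). *Mmp2*, the most abundant, was at -0.84 ± 0.12 (log2, SE) with an adjusted p of 0.0017 by limma-trend, under the 2-fold limit. It had 705, 870 and 750 in Sirt6mKO and 1327, 1516 and 1309 in Ctrl.

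Among proteoglycan core proteins outside the SLRPs, 1 of 16 tested was called higher and 0 lower, with a median log2 fold change of 0.37. *Gpc3*, which encodes a glypican of the cell surface, had 60, 73 and 73 in Sirt6mKO and 31, 15 and 5 in Ctrl, a log2 fold change of 2.25 ± 0.46 (SE) with an adjusted p of 0.014 by limma-trend. It was not called with robust empirical Bayes or when any 1 of the Sirt6mKO libraries was left out. The most abundant, *Hspg2* and *Sdc4*, which encode perlecan and syndecan-4, were at 0.55 ± 0.16 and -0.30 ± 0.10 (log2, SE) and were not called. *Bgn* and *Aspn* were 2 of the 3 called genes among all proteoglycan core proteins tested here, where 1.57% of all genes tested were called higher. *Aspn* reached the minimum mean only through the Sirt6mKO libraries, which favoured a higher value there.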

How the data were processed

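RNA-seq of MuSCs from 3 Sirt6mKO and 3 Ctrl samples was used, grouped by the labels. Per the labels' processing notes, the authors used Trimmomatic 0.39, STAR 2.7.10a, featureCounts 2.0.2 and DESeq2 1.30.1 with mm10. The methods name RiboMinus and Ion kits and the labels RiboGone and SMARTer kits. The deposited values are a signal, reads per gene divided by a size factor and rounded by the authors, so no count model was run. Size factors (0.558 to 1.372), and from them the reads, were estimated by fitting how often each small whole number occurs. Of the whole numbers from 1 to 60, 11 were unused in Ctrl replicate 1 and 27 in Ctrl replicate 3. In the other libraries 0 were unused.

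Log2(signal + 1) was fitted for all genes with limma-trend (limma 3.58.1, R 4.3.3) and adjusted by Benjamini-Hochberg over 14227 genes. Single values were compared by exact two-sided permutation tests. Tables were handled with Python 3.11.15, numpy 2.4.6 and pandas 2.3.3 and plots with matplotlib 3.10.9. Before use, the fit was tested on simulated data of known changes. Positions, exons and neighbours came from GENCODE for GRCm38, in which 99.7% of identifiers were found, and promoters from RefSeq (GRCm38.p6). Counting intervals were exact at 95%.

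Named are all 10 members, *Sirt6*, *Pax7*, of each other list the called genes and the 2 most abundant not called, the 3 genes of most similar pattern for each member with a mean of at least 20, and genes next to a member. *Bmp6*, *Csgalnact1*, *Tnmd*, *Comp*, *Scx*, *Mkx*, *Ly6a*, *Ptprc*, *Cd34*, *Abcc9*, *Pdgfrb*, *Myh11*, *Col2a1*, *Col11a1* and *Col14a1* were named after their values were seen. The results of 1 marker list are not reported here. The members and lists were chosen with earlier results of these data known. Alternatives were 4 other scalings, log2 CPM with a prior count of 2, other filters, pseudocounts and thresholds, robust empirical Bayes, voom on recovered reads, the replicate number as a block, and leaving out each library.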

Additional observations from a re-analysis of the deposited data

How the results depend on the processing

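Each member kept the direction of its change under every alternative that could test it. The count of members called higher was 2 and became 1 (*Bgn*) with a mean of at least 50, a pseudocount of 0.1, limma voom on recovered reads or an adjusted p of at most 0.01, and ranged from 0 to 4 when 1 library was left out, with 4 (*Fmod*, *Dcn*, *Kera* and *Aspn*) without Sirt6mKO replicate 1 and 0 without Ctrl replicate 2. The log2 fold change of *Aspn* was not past the limits at a pseudocount of 0.1 (5.35, adjusted p = 0.056 by limma), with voom (3.59, adjusted p = 0.059 by limma) and at an adjusted p of at most 0.01 (3.11). Leaving out 1 library, the log2 fold change ranged from 0.87 to 1.29 for *Bgn*, from 0.99 to 1.96 for *Dcn*, from 2.84 to 3.76 for *Aspn*, from 1.89 to 4.55 for *Fmod* and from 2.35 to 4.35 for *Kera*. The *Bgn* to *Dcn* ratio difference ranged from -0.99 to 0.15, turning from -0.26 to 0.15 without Sirt6mKO replicate 2 and to 0.05 without Sirt6mKO replicate 3. The causes were not tested, other than fewer genes or libraries.

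With the replicate number as a block, *Fmod* passed both thresholds (3.03, adjusted p = 0.026 by limma), and the count of members called higher became 3. Same-numbered libraries deviated together with correlations of 0.02, 0.07 and 0.19, so the numbers were not taken as pairing. For the other lists and the 3 ratios chosen after the values were seen, 330 of 363 values were within 1.5 times the count given or of the same sign. Many of these are counts of 0 that stayed at 0, so the share says little about lists with called genes. The count of collagens called higher, 3 in the main fit, ranged from 1 to 5. Depth limits *Aspn*, *Kera*, *Omd*, *Lum* and *Podn*, with 1 to 14 control reads each. Leaving out 1 library leaves a group with 2.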
